A study of Saccharomyces cerevisiae with 3 samples.

Results

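ETS2, the 3′ external transcribed spacer of the yeast 35S gene, is the stretch that Pol I transcribes after it has left 25S rRNA and before it is released. Its members are the positions that the deposited table assigns to ETS2 by its region column: 92 positions up to and including the terminator T1 and the 119 positions after it, out of 1504 positions in the 4 spacers. They make up 3.08% of the gene and follow 6647 positions that run to the 3′ end of 25S. Positions are counted here from the first nucleotide after 25S. In assembly R64 this is chrXII:460712-460922 on the minus strand, the 3′ end of *RDN37-2*, directly after *RDN25-2*. It is spacer sequence that is removed from the rRNA precursor, and it is part of no mature rRNA. The same assembly lists another copy of the gene, *RDN37-1*, on chromosome XII from 451575 to 458432.

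The samples were 3 *hmo1Δ* replicates (*Saccharomyces cerevisiae* without *HMO1*, which encodes an HMG-box protein of the rDNA), compared with wild type (WT), which carries *HMO1*. Both strains carry a His and HA tag on Rpa135, a Pol I subunit, marked with *TRP1*, and in *hmo1Δ* the gene was replaced by *URA4*, as the methods spell it. Pol I and its RNA were purified through the HA tag from cultures grown in YEPD at 30 °C. Native elongating transcript sequencing (NET-seq) reads the 3′ ends of RNA bound to Pol I, so that each read marks the last nucleotide incorporated. The WT libraries came from another series and enter here only as the authors' median over WT replicates, with no replicate values, and the effect of the strain cannot be told apart from that of the library series. Each replicate was a culture of its own, and whether the cultures came from separate colonies is not given in the sources used here.

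The 3′ end of the 35S precursor is shaped by cleavage and by termination. Rnt1, the yeast RNase III, cuts both strands of a hairpin that forms in the RNA just after 25S, which frees the precursor from the RNA still held by Pol I. The exonuclease Rat1 can then degrade the remaining RNA toward the polymerase. Most Pol I is released at the terminator T1, a T-rich stretch that lies before a site bound by the Myb-domain proteins Reb1 and Nsi1, which act as a roadblock.

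The whole spacer is shown first, as RNA and 5′ to 3′, since the results follow its layout. Capitals mark the residues that the table annotates for Rnt1 (positions 16 to 50), the T1 residue (position 92) and the Reb1/Nsi1 site (positions 110 to 120).
ETS2: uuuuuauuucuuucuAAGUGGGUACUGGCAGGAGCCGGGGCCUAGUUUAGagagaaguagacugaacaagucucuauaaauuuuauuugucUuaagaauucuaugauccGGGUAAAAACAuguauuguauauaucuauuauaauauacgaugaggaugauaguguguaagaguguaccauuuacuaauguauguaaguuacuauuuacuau
The 15 positions before the Rnt1 residues are 80% U and hold no G. The 35 Rnt1 residues are 42.9% G, the highest share of any segment of more than 1 position. The 41 positions between them and T1 are 36.6% A and 34.1% U. The 11 residues of the Reb1/Nsi1 site occur 1 time in the 35S gene.

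The first 63 nucleotides of the spacer were folded to place the Rnt1 residues on the RNA. The predicted minimum free energy was -31.4 kcal/mol, with 26 base pairs between positions 3 and 61 and a loop of 4 bases at positions 30 to 33. Capitals mark this loop.
Hairpin, positions 1 to 63: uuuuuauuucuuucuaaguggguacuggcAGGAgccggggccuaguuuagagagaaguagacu
The loop reads AGGA, which has the form AGNN of the tetraloops that Rnt1 is known to bind. AGNN, where N is any base, was searched on the RNA strand only and begins at 16 of 208 windows of 4 bases in ETS2 (7.69%), close to the 7.21% of 6855 windows in the whole gene. The first Rnt1 residue lies 14 nucleotides before the loop and the last lies 17 nucleotides after it. In the fold, the first residue (position 16) pairs with position 48, so the annotated ends are offset by 2 nucleotides.

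The deposited values are normalized counts in RPM, the reads at a position scaled so that positions up to T1 sum to 1000000. The 119 positions after T1 are scaled by the same factor but are not part of that total. The total includes 18S, 5.8S and 25S, where the study describes contamination by mature rRNA. The replicates held 1985964 to 3704662.5 reads over the gene, with 41198, 15594 and 30880.5 reads in ETS2 in replicates 1, 2 and 3. The median ETS2 position held 28, 14 and 21 reads in the same order. A count of 0 allows up to 0.811, 1.51 and 1.07 RPM in replicates 1, 2 and 3, and these limits cover counting error only. Positions 1 and 2, the first after 25S, are listed at 0 in all 3 *hmo1Δ* replicates and in the WT median, as is the last 25S position before them. Across the other 209 positions the Spearman coefficient between *hmo1Δ* replicates was 0.943 to 0.954. Single *hmo1Δ* replicates gave 0.892 to 0.901 with the WT median. The positions share their libraries, so no *p*-value is given.

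Occupancy of ETS2 as a whole was higher in *hmo1Δ*. Its summed occupancy was 11134, 7859 and 10988 RPM in *hmo1Δ* replicates 1, 2 and 3, against 4248 RPM in the WT median. Here and below, a WT sum adds the WT medians of single positions and is not a median of WT replicate sums. The effect of this on the ratios was not tested. Each replicate lay above WT, and replicate 2 was the lowest. The log2 ratio was 1.22 ± 0.28 (SD, n = 3), a 2.32-fold difference. When the profiles were scaled to the other 3 spacers in place of the whole gene, it was 0.74, with all replicates above WT. The part of mature rRNA in the difference between these scalings was not tested. With 3 replicates on one side, a two-sided exact sign test cannot give a *p*-value below 0.25, so the differences below are read against the spread between replicates and not tested. All 3 *hmo1Δ* replicates lay above the WT median at 167 ETS2 positions (79.1%), where the background over the 35S gene was 44.2%. All 3 lay below it at 8 positions (3.79%), against a background of 37.2%. When each replicate had to differ by at least 1.5-fold, 130 positions were higher (61.6%), against a background of 21%, and 3 were lower (1.42%), against a background of 7.45%. By this rule 62.0% of positions were higher in ITS1, 64.2% in ITS2 and 27.7% in ETS1. The shares of lower positions there were 4.71%, 3.88% and 16.6% in the same order. The count of 8 lower positions moved with single libraries, to 14, 9 and 13 when replicate 1, 2 or 3 was left out. Scaling moved both counts further, to 138 higher and 19 lower positions with the other 3 spacers as the total, and to 84 higher and 65 lower with ETS2 as the total.

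**Figure D1:**
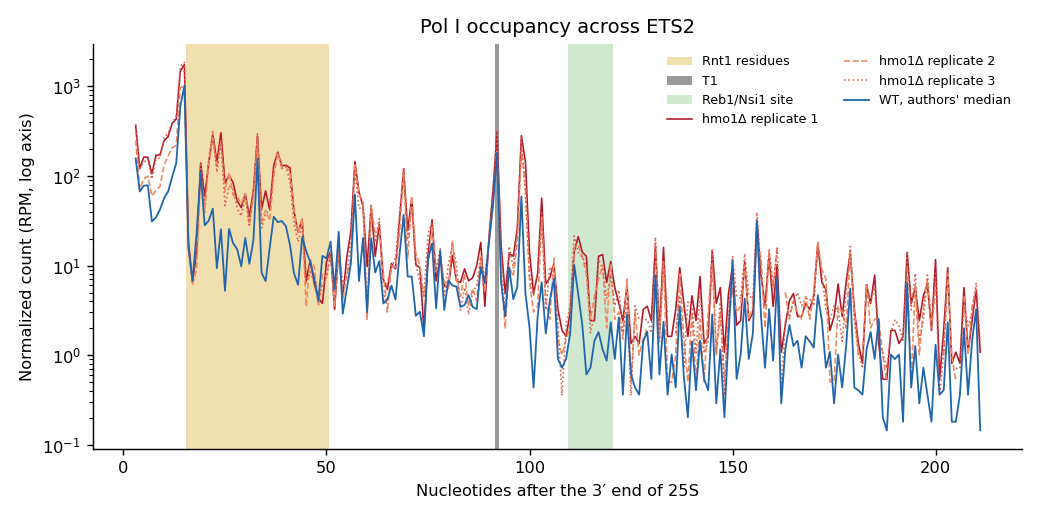
Normalized counts in RPM (log axis) at each position of ETS2, by nucleotides after the 3′ end of 25S, for the 3 *hmo1Δ* replicates and the authors' WT median; values of 0 are not drawn and shaded bands mark the annotated features. The highest values stand just before the Rnt1 residues, and a single high position marks T1. After T1 all 3 *hmo1Δ* replicates are above WT at 100 of 119 positions (84.0%), near the 79.1% over all of ETS2.

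The direction was shared by all parts of the spacer but its size was not. The spacer was divided at the annotated features into 7 segments, and all 3 replicates were above WT in each of them. With scaling to the other 3 spacers, replicate 2 lay below WT before the Rnt1 residues and at T1 only. The mean log2 ratio over the replicates ranged from 0.54 at T1 to 2.01 between T1 and the Reb1/Nsi1 site. In windows of 10 positions, all 3 replicates lay above WT in 21 of 21 windows, with mean log2 ratios of 0.53 to 2.57 and a median of 1.21. The share of such windows in the rest of the gene was not computed, so this count is not shown to be particular to ETS2. The highest window covered positions 21 to 30, mostly in the 5′ arm of the Rnt1 hairpin, at 1301, 1169 and 1155 RPM in *hmo1Δ* replicates 1, 2 and 3, against 203 RPM in WT. The lowest covered positions 81 to 90, which end 2 nucleotides before T1, at 101, 87.7 and 89.3 RPM in *hmo1Δ*, against 64.2 RPM in WT.

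**Figure D2:**
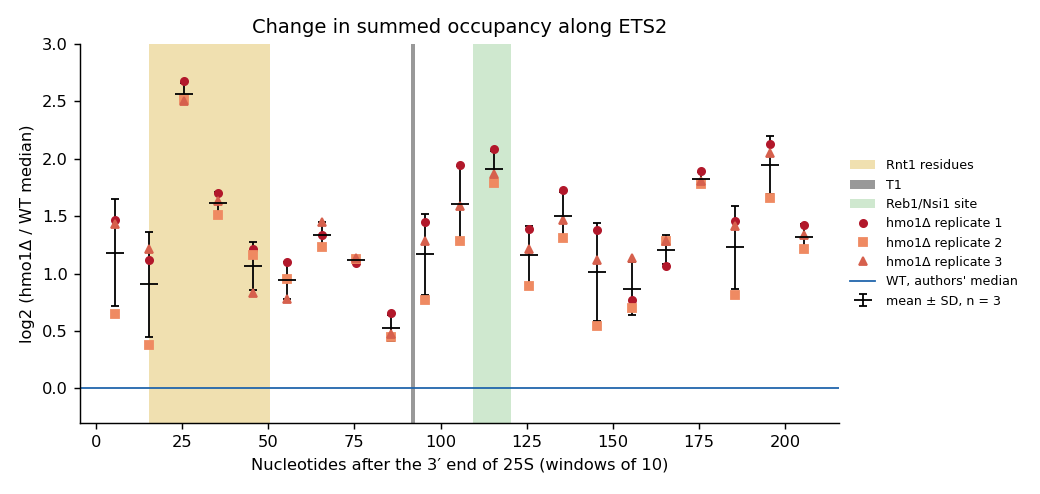
Log2 ratio of summed occupancy, *hmo1Δ* over the authors' WT median, in 21 windows of 10 positions along ETS2, with each replicate as a point and the mean ± SD (n = 3) as a bar; the horizontal line is WT. All windows lie above the line, from 0.53 in positions 81 to 90 to 2.57 in positions 21 to 30. Windows outside ETS2 were not computed.

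The 15 positions between 25S and the first Rnt1 residue held the largest share of the signal. They summed to 5801, 3399 and 6116 RPM in *hmo1Δ* replicates 1, 2 and 3, against 2453 RPM in WT, which made up 50.3% ± 6.39 (SD, n = 3) of ETS2 in *hmo1Δ*, against 57.7% in WT. This order of the segments rested on positions 14 and 15. Without them the share in *hmo1Δ* was 30.6%, and the Rnt1 residues held the largest share at 38.5%. Replicate 2 stood well below the other *hmo1Δ* replicates here, at 0.570 of their mean. The log2 ratio was 1.01 ± 0.47 (SD, n = 3). The fold of the strain medians was largest in the middle of this U-rich stretch. Position 8 had 169, 69.0 and 157 RPM in *hmo1Δ*, against 34.3 RPM in WT, and position 12 had 384, 206 and 396 RPM, against 97.7 RPM. At both positions every replicate was at least 2.01-fold above WT.

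The last 2 positions before the Rnt1 residues were the highest of the spacer in both strains. Position 15, the last nucleotide before the annotated cut, had 1737, 994 and 1841 RPM in *hmo1Δ*, against 1012 RPM in WT. Replicate 2 lay below the WT median, and replicates 1 and 3 lay above it. Position 14 had 1476, 966 and 1667 RPM in *hmo1Δ*, against 595 RPM in WT, with every replicate above the WT median. By the median of the strain, position 15 had rank 6 among all positions of the gene in *hmo1Δ* and rank 45 in WT. The coefficient of variation at position 15 was 30.3% over *hmo1Δ* replicates, and the authors give 10.6% over WT replicates. These positions are where cleavage by Rnt1 would leave a new 3′ end on the precursor. Such ends and the ends of RNA held by elongating Pol I cannot be told apart in these data.
Position 15, the last 20 bases with the last one in capitals: uuuguuuuuuauuucuuucU

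Directly after the cut the signal dropped in both strains. Position 16, the first Rnt1 residue, had 18.6, 15.6 and 16.0 RPM in *hmo1Δ*, against 15.9 RPM in WT. Replicate 2 was below the WT median, and replicates 1 and 3 were above it. From position 15 to position 16 occupancy decreased 93.1, 63.6 and 115-fold in *hmo1Δ* replicates 1, 2 and 3, and 63.8-fold in WT.

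Within the Rnt1 residues the difference between strains was larger and varied less between replicates than before the cut. They summed to 2907, 2567 and 2633 RPM in *hmo1Δ* replicates 1, 2 and 3, against 841 RPM in WT, a log2 ratio of 1.68 ± 0.09 (SD, n = 3). They made up 27.6% ± 4.53 (SD, n = 3) of ETS2 signal in *hmo1Δ*, against 19.8% in WT. All 3 replicates were above WT at 25 of the 35 residues (71.4%, below the 79.1% over all of ETS2). They were below it at 4 (11.4%, against 3.79%). The 25 residues formed one run, positions 20 to 44, which was the longest run of that kind in ETS2.

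By the median of the *hmo1Δ* replicates, the highest Rnt1 residue was in the 5′ arm, where a run of G follows the U-rich stretch. Position 22, the last G of that run, had 291, 265 and 312 RPM in *hmo1Δ*, against 43.1 RPM in WT. The replicates were close to each other and each was at least 6.15-fold above WT. The next position, 23, had 143, 122 and 110 RPM in *hmo1Δ*, against 9.35 RPM in WT, for a log2 ratio of 3.73 ± 0.19 (SD, n = 3). Among ETS2 positions with a WT median of at least 5 RPM, this was the largest fold by the medians of the strains, at 13.1. Position 24 had 303, 237 and 246 RPM in *hmo1Δ*, against 25.4 RPM in WT, and position 25 had 83.5, 67.5 and 46.6 RPM, against 5.23 RPM. At these 4 positions every replicate was above the WT median. The last 20 bases at the first and the last of them are shown, with the last base in capitals, since they contain the change from U-rich to G-rich sequence.
Position 22: uuuauuucuuucuaaguggG
Position 25: auuucuuucuaaguggguaC

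The loop of the hairpin had a lower summed fold than the arms, through its last base. The 5′ arm of the annotated residues (positions 16 to 29) had a log2 ratio of 1.89 ± 0.11 (SD, n = 3), the loop 1.06 ± 0.09 and the 3′ arm (positions 34 to 50) 1.77 ± 0.10. The loop had 443, 401 and 449 RPM in *hmo1Δ*, against 206 RPM in WT. Most of it came from its last base, position 33, with 277, 250 and 295 RPM in *hmo1Δ*, against 156 RPM in WT, the highest of the Rnt1 residues in WT. By the strain medians, position 33 was 1.77-fold above WT. The other loop bases, positions 30, 31 and 32, were 3.10, 2.75 and 3.52-fold above it. The 3′ arm was split. Its first 11 residues were above WT in all replicates, with position 38 at 182, 181 and 191 RPM in *hmo1Δ*, against 30.5 RPM in WT. None of the last 6 residues was above WT in all replicates, and 3 of them were below it in all.

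Of the 8 ETS2 positions where every *hmo1Δ* replicate was below WT, 6 lay at the end of the annotated Rnt1 residues, inside the predicted stem. They were position 45 and the unbroken run from 49 to 53, which spans the last 2 Rnt1 residues and the first 3 positions after them. In the fold, position 45 is an unpaired base within the stem, and the run from 49 to 53 is paired. Positions 54 to 59 and 61, which follow in the stem, were above WT in all replicates. The other two of the 8 were positions 18 and 186. The fold of the *hmo1Δ* median over WT at the 8 positions was 0.444 to 0.774. Position 45 had 6.76, 3.53 and 6.41 RPM in *hmo1Δ*, against 14.4 RPM in WT, the lowest fold of the spacer by the strain medians among positions with a WT median of at least 5 RPM. These values are low, with 25, 7 and 18 reads in replicates 1, 2 and 3. Position 50, the last Rnt1 residue, had 11.1, 7.56 and 7.47 RPM in *hmo1Δ*, against 12.0 RPM in WT. It stood at 0.752, 0.588 and 0.532 of the median of the 10 positions on each side in *hmo1Δ* replicates 1, 2 and 3, and at 1.12 times that median in WT.
Position 45, the last 20 bases with the last one in capitals: uggcaggagccggggccuaG

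**Figure D3:**
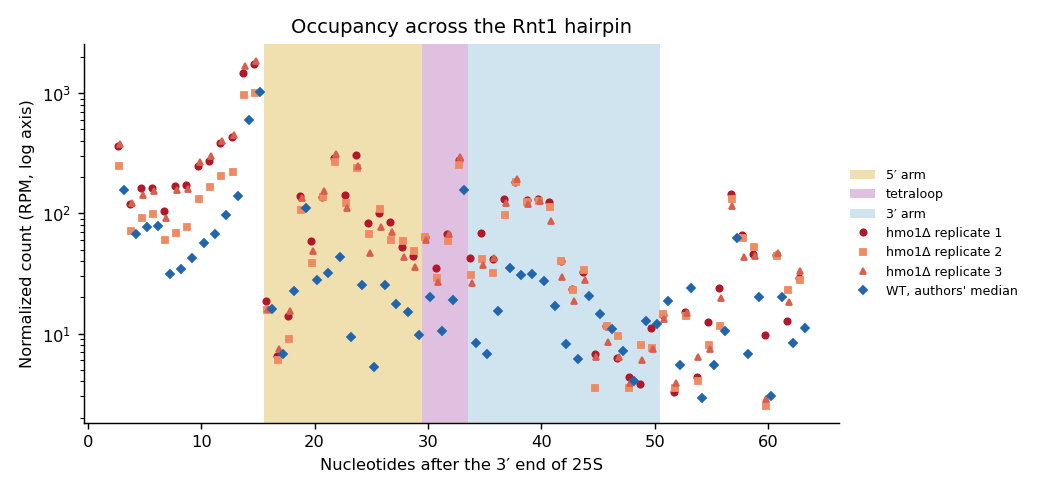
Normalized counts in RPM (log axis) from 3 to 63 nucleotides after the 3′ end of 25S, for the 3 *hmo1Δ* replicates and the authors' WT median, with the arms and the loop of the Rnt1 residues shaded. The *hmo1Δ* replicates lie above WT over most of both arms and near or below it at the last 6 Rnt1 residues, where position 45 had 3.53 to 6.76 RPM in *hmo1Δ* and 14.4 RPM in WT.

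Between the Rnt1 residues and T1 the level was lower in both strains, and the ratio again varied little between replicates. The 41 positions summed to 956, 869 and 906 RPM in *hmo1Δ*, against 459 RPM in WT, a log2 ratio of 0.99 ± 0.07 (SD, n = 3). All 3 replicates were above WT at 29 positions (70.7%, below the 79.1% over all of ETS2). They were below it at 3 (7.32%, against 3.79%). The highest position was 57, at 145, 133 and 115 RPM in *hmo1Δ*, against 61.8 RPM in WT. Position 58, the next one, had 66.2, 62.5 and 43.4 RPM in *hmo1Δ*, against 6.72 RPM in WT. Position 71 had 56.5, 58.5 and 44.8 RPM in *hmo1Δ*, against 7.52 RPM in WT. At all 3 positions every *hmo1Δ* replicate lay above the WT median, and positions 58 and 71 were at least 5.96-fold above it in every replicate.
Position 58, the last 20 bases with the last one in capitals: ggccuaguuuagagagaagU

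T1 was a single high position in both strains. It had 302, 188 and 318 RPM in *hmo1Δ* replicates 1, 2 and 3, against 181 RPM in WT. Replicate 2 was 1.04-fold above WT, while replicates 1 and 3 were 1.67 and 1.76-fold above it. The log2 ratio of 0.54 ± 0.42 (SD, n = 3) was the smallest of the 7 segments, and only the stretch before the Rnt1 residues had a larger SD. T1 was 26.6, 25.7 and 36.4 times the median of the 10 positions on each side in *hmo1Δ* replicates 1, 2 and 3, and 37.8 times in WT. Relative to all ETS2 positions before it, T1 was at 3.06% ± 0.277 (SD, n = 3) in *hmo1Δ*, against 4.82% in WT, and every replicate was below WT in this ratio.

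Of the 7 segments, the one directly after T1 had the largest mean log2 ratio, but in replicate 2 that of the Reb1/Nsi1 site was larger, at 1.73 against 1.67, and the means of 2.01 and 1.86 differed by less than the SD of 0.34. Positions 98 and 99 held most of the signal of this segment in every *hmo1Δ* replicate and in WT. Its ratio without them was not computed, so the rank may not hold for its other positions. The sequence from 9 nucleotides before T1 to the end of the Reb1/Nsi1 site is shown with T1 and the site in capitals.
T1 to the Reb1/Nsi1 site, positions 83 to 120: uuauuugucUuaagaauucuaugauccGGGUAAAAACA
The 17 positions between T1 and the site summed to 612, 382 and 478 RPM in *hmo1Δ*, against 120 RPM in WT, a log2 ratio of 2.01 ± 0.34 (SD, n = 3). Of all ETS2 signal, 4.90% ± 0.576 (SD, n = 3) lay here in *hmo1Δ*, against 2.82% in WT. A second high position lay 6 nucleotides after T1. Position 98 had 281, 191 and 263 RPM in *hmo1Δ*, against 58.8 RPM in WT, with every replicate above the WT median. It was thus 0.928, 1.02 and 0.826 of T1 in *hmo1Δ* replicates 1, 2 and 3, and 0.325 of T1 in WT. Position 99, chosen after its values were seen, had 143, 76.1 and 62.3 RPM in *hmo1Δ*, against 4.90 RPM in WT, so that each replicate was at least 12.7-fold above WT. Positions 98 and 99 together made up 33.4% ± 2.50 (SD, n = 3) of the signal after T1 in *hmo1Δ*, against 20.2% in WT.
Position 98, the last 20 bases with the last one in capitals: aauuuuauuugucuuaagaA

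At the Reb1/Nsi1 site all 11 positions were above WT in all 3 replicates, where the share over all of ETS2 was 79.1%. The site summed to 114, 92.2 and 98.9 RPM in *hmo1Δ*, against 27.8 RPM in WT, a log2 ratio of 1.86 ± 0.15 (SD, n = 3). It rested on 420, 183 and 278 reads in replicates 1, 2 and 3, with counting errors between 4.88% and 7.39%. By the median of the *hmo1Δ* replicates its highest position was 112. This position had 21.1, 16.6 and 13.9 RPM in *hmo1Δ*, against 4.79 RPM in WT, with every replicate above the WT median.

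**Figure D4:**
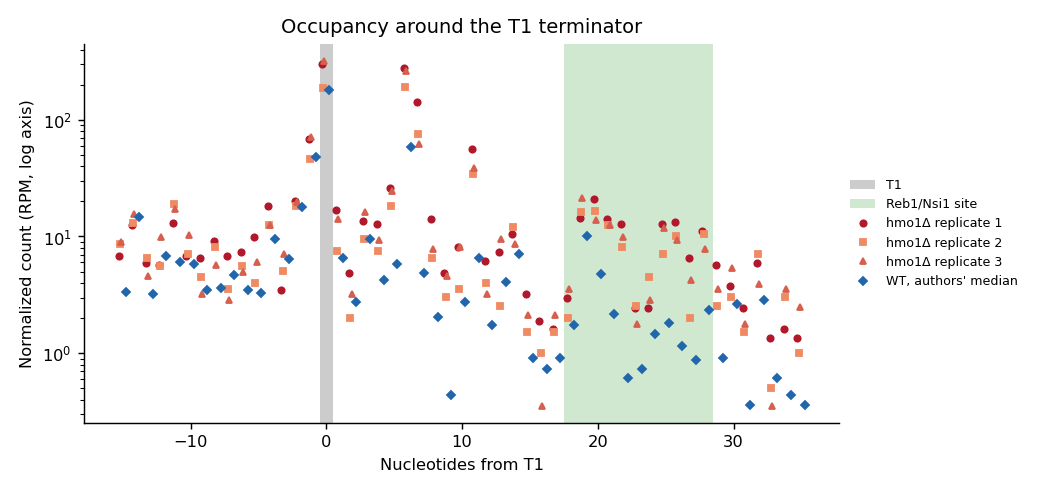
Normalized counts in RPM (log axis) from 15 nucleotides before to 35 after T1, for the 3 *hmo1Δ* replicates and the authors' WT median, with T1 and the Reb1/Nsi1 site shaded. T1 and position 98, 6 nucleotides after it, are of similar height in *hmo1Δ*, whereas position 98 is 0.325 of T1 in WT.

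Signal continued after the Reb1/Nsi1 site at a low level. The 91 positions summed to 441, 362 and 440 RPM in *hmo1Δ*, against 167 RPM in WT, a log2 ratio of 1.30 ± 0.16 (SD, n = 3). All 3 replicates were above WT at 75 of these positions (82.4%, near the 79.1% over all of ETS2) and below it at 1. The last 10 positions still held 29.7, 25.2 and 28.5 RPM in *hmo1Δ*, against 10.7 RPM in WT. The highest WT position of this stretch, position 156, did not differ in one direction. It had 32.2, 20.7 and 39.1 RPM in *hmo1Δ*, against 31.3 RPM in WT, with replicate 2 below WT and the other two above it. It was 8.81, 6.31 and 9.17 times the median of the 10 positions on each side in *hmo1Δ*, against 25.7 times in WT.
Position 156, the last 20 bases with the last one in capitals: auuauaauauacgaugaggA

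The ratio in this last stretch was also summed by the base at the 3′ end of the RNA. Positions ending in U were low in both strains, with a median over 38 positions of 2.30, 1.26 and 2.31 RPM in *hmo1Δ*, against 0.436 RPM in WT. Their summed log2 ratio was 2.04 ± 0.19 (SD, n = 3). Positions ending in A were higher, with a median over 30 positions of 6.08, 5.54 and 5.87 RPM in *hmo1Δ*, against 2.16 RPM in WT, and a log2 ratio of 1.11 ± 0.14. Positions ending in G and C had log2 ratios of 1.22 ± 0.20 and 1.23 ± 0.48. The order of these summed ratios was not that of the positions up to T1 or of all ETS2. Over all positions after T1, including position 99, the log2 ratio was also highest for U, at 2.40 ± 0.37 (SD, n = 3). Up to T1 the log2 ratio was lowest for U, at 0.95 ± 0.41, and highest for G, at 1.76 ± 0.09 (SD, n = 3). Over all of ETS2 it was also lowest for U, at 1.00 ± 0.40, and highest for G, at 1.71 ± 0.09. Medians over positions gave the opposite order of U and G relative to WT. Up to T1 the median at positions ending in U was 42.7, 43.1 and 38.4 RPM in *hmo1Δ*, against 11.04 RPM in WT. For G it was 47.4, 34.8 and 35.2 RPM in *hmo1Δ*, against 16.5 RPM in WT. The medians over all of ETS2 also put U above G relative to WT. In the last stretch the WT median at positions ending in U lies below the value of 1 read in replicate 2, 0.504 RPM. The depth of the WT libraries is not used here.

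Summed over the 119 positions after T1, occupancy was 1167, 836 and 1016 RPM in *hmo1Δ*, against 315 RPM in WT, a log2 ratio of 1.66 ± 0.24 (SD, n = 3). It rested on 4317, 1659 and 2855 reads in replicates 1, 2 and 3. To take out the level of the spacer itself, this sum was divided by the sum of the ETS2 positions before T1. The ratio was 12.1%, 12.2% and 10.5% in *hmo1Δ* replicates 1, 2 and 3, against 8.39% in WT. All replicates were above WT, at a log2 ratio of 0.46 ± 0.12 (SD, n = 3). This difference depended on a few positions. Without the 15 positions before the Rnt1 residues in the denominator, the ratio was 30.2%, 24.3% and 28.7% in *hmo1Δ*, against 24.2% in WT, and replicate 2 was then nearly at WT. Without positions 98 and 99 it was 7.69%, 8.32% and 7.16% in *hmo1Δ*, against 6.70% in WT. The first 12, 21 and 20 positions after T1 held 50% of the signal after T1 in *hmo1Δ* replicates 1, 2 and 3, against the first 37 in WT. These counts include positions 98 and 99, with 33.4% of the signal after T1 in *hmo1Δ* and 20.2% in WT. They were not computed without that pair.

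**Figure D5:**
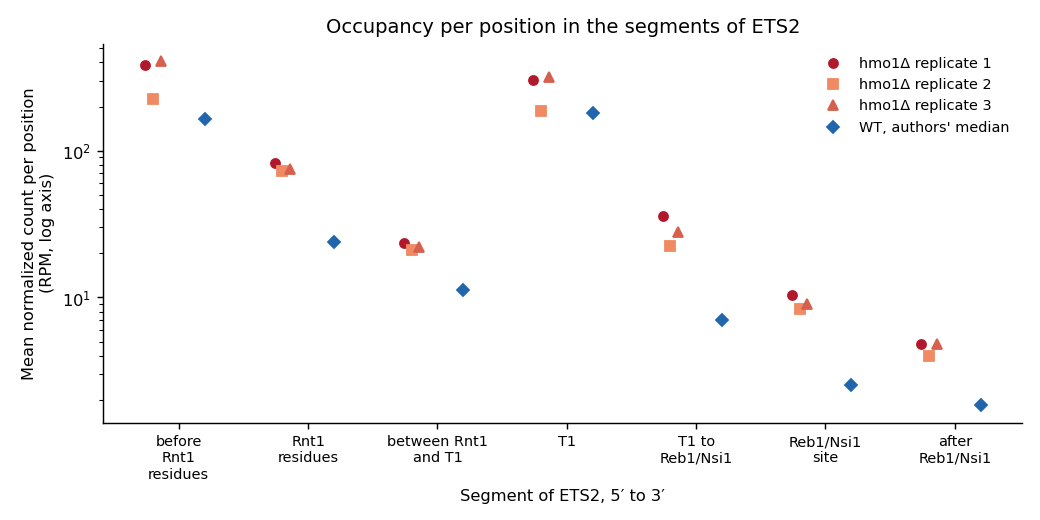
Mean normalized count per position in RPM (log axis) in the 7 segments of ETS2 from 5′ to 3′, for each *hmo1Δ* replicate (left of each pair) and the authors' WT median (right). Every *hmo1Δ* replicate is above WT in every segment, most closely at T1, where replicate 2 had 188 RPM and WT 181 RPM.

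The level of replicate 2 relative to the other *hmo1Δ* replicates varied between segments. Replicate 2, the library with the fewest reads, was at 0.570 of the mean of replicates 1 and 3 before the Rnt1 residues, at 0.606 at T1 and at 0.701 between T1 and the Reb1/Nsi1 site. It was at 0.927 in the Rnt1 residues and at 0.933 between them and T1. In the last 100 positions of 25S, directly upstream, it was at 0.833. The part of depth in this pattern was not tested. Before the Rnt1 residues the coefficient of variation had a median of 28.4% over positions in *hmo1Δ*, and the authors' coefficient for WT one of 10.1%. Within the residues the medians were 14.7% in *hmo1Δ* and 10.2% in WT. On recovered reads, chi-square per degree of freedom between pairs of *hmo1Δ* replicates was 3.25 to 5.19 before the Rnt1 residues, 2.12 to 3.98 within them and 1.89 to 2.63 between them and T1. It was 1.07 to 4.95 between T1 and the Reb1/Nsi1 site, 0.992 to 1.37 at the site and 1.08 to 1.34 after it, where counting noise alone gives values near 1. The ranges before and within the Rnt1 residues overlapped.

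Among the 87 ETS2 positions with a WT median of at least 5 RPM, 67 were above WT in all *hmo1Δ* replicates (77.0%) and 7 below (8.05%). Over the 6627 positions of the 35S gene that pass the same minimum, the background was 43.2% above and 38.3% below. Over the 1195 such positions of the other 3 spacers it was 63.4% above and 22.4% below. Of the 67, the fold of the strain medians was at least 2 at 50 positions, at least 4 at 19 and at least 8 at 4. These are 57.5%, 21.8% and 4.60% of the 87, against a background of 15.1%, 3.21% and 0.558% over the gene. In the other 3 spacers the same shares were 37.3%, 10.7% and 2.26%, nearer to those of ETS2. The 19 ETS2 positions included 11 of the 34 Rnt1 residues that passed the minimum and 3 of the 13 positions before them. The other positions were 2 of 26 between the Rnt1 residues and T1, and 3 of 6 between T1 and the Reb1/Nsi1 site. Over 209 positions, the log2 change with a pseudocount of 1 RPM had a Pearson coefficient of 0.325 and a Spearman coefficient of 0.329 with the G content of the last 10 bases. For U content the coefficients were -0.269 and -0.326. The base windows of neighbouring positions overlap, so these are descriptions and no *p*-value is given. Up to T1 the Pearson coefficient with G content was 0.391 over 90 positions and after T1 it was 0.237 over 119.

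The ratio of ETS2 was above that of ETS1 in all 3 replicates, and above those of ITS1 and ITS2 in 2 of 3. The log2 ratio of ETS2 exceeded that of ETS1 by 1.33, 0.68 and 1.40 in replicates 1, 2 and 3. It exceeded that of ITS1 by 0.31 in replicates 1 and 3 and was lower by 0.22 in replicate 2. Against ITS2 the differences were 0.36, -0.08 and 0.39 in replicates 1, 2 and 3, and replicate 2 had the opposite sign to replicates 1 and 3 for both. The mean differences of 0.13 from ITS1 and 0.22 from ITS2 were smaller than their SDs of 0.30 and 0.27 (n = 3). The share of positions with all 3 replicates above WT was 79.1% in ETS2, against 80.1% in ITS1, 82.8% in ITS2 and 48.0% in ETS1, so that ITS1 and ITS2 were at or above ETS2 and only ETS1 was lower. All 3 replicates were below WT at 3.79% of positions in ETS2, against 10.5% in ITS1, 8.19% in ITS2 and 31.9% in ETS1.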

How the data were processed

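Pol I NET-seq was analysed in 3 *hmo1Δ* replicates, grouped and numbered by their sample labels, at the 211 ETS2 positions of the 6858 in the gene. The authors collapsed reads by UMI, removed adaptor sequence (cutadapt 3.4), mapped to R64 (STAR 2.7.1a) and took coverage of 3′ ends (bedtools 2.28.0). The sources used here do not say to which rDNA copy a read was given. The authors deposited RPM per position for each *hmo1Δ* replicate, and the median over WT replicates in RPM. A deposited score column holds the authors' coefficient of variation over WT replicates, in percent. Another 3 columns hold single WT replicates of another series and were left out, as was the authors' WT mean. Columns with the authors' own comparisons (a change, a ratio and a *p*-value per position) were not used.

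Reads were recovered as multiples of the smallest step, at 99.9% of positions or more, with a tolerance of 0.02. The few values between steps were kept. No count test was possible with 1 group, so no position was called by one. Segments followed the table's annotation. Ratios were computed in each replicate over the WT median, then as mean and SD. The named positions were the 5 highest in *hmo1Δ*, the 3 highest in WT, the highest of each segment, the 5 largest folds (WT median of at least 5 RPM, all replicates above), those below WT in all replicates, and the ends of annotated features. Other positions were added after their values were seen. The spacer, the lists and the measures were chosen with earlier results of these data known. The calculations used Python 3.11.15, numpy 2.4.6, pandas 2.3.3, scipy 1.17.1, matplotlib 3.10.9 and ViennaRNA 2.7.2, and were tested on simulated profiles. The table covers the 35S gene, so the deletion of *HMO1* was not checked here.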

Additional observations from a re-analysis of the deposited data

How the results depend on the processing

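No paired analysis was possible because only 1 group of samples has replicates here. Scaling to all positions of the gene or to 25S moved no log2 ratio of a sum by more than its SD and no count of positions by over 1.5 times. When profiles were scaled to the other 3 spacers, the ETS2 log2 ratio was 0.74, and the segments gave 0.53 before the Rnt1 residues (replicate 2 below WT), 1.20 in them, 0.51 between them and T1, 0.055 at T1 (replicate 2 below WT), 1.53 between T1 and the Reb1/Nsi1 site, 1.38 at the site and 0.82 after it, with 19 positions below WT in all replicates. Scaled to the ETS2 total, which sets the spacer's own ratio to 0 by construction, the segments gave -0.21, 0.47, -0.23, -0.68, 0.79, 0.65 and 0.084 in the same order, with 84 positions above WT and 65 below. Of the 167 positions above WT, 67 had a WT median of at least 5 RPM. Of the 8 below, 3 were so by 1.5-fold.

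Leaving out 1 replicate in turn gave 1.13 to 1.38 for the ETS2 log2 ratio and 167 to 185 positions above WT and 9 to 14 below. Without positions 14 and 15 the ETS2 log2 ratio was 1.42, and the shares of the 7 segments were 30.6%, 38.5%, 13.0%, 3.75%, 6.86%, 1.44% and 5.86%. The log2 ratio of the signal after T1 to that before it was 0.19 without positions 1 to 15 in the denominator, 0.20 without positions 98 and 99 and 1.65 with 25S as the denominator. The mean Spearman coefficient between replicates was 0.983 in windows of 5 positions. The count over positions of at least 5 RPM and the omission of positions 98 and 99 were chosen after seeing the data. Depth limits the last stretch, where replicate 2 had 718 reads over 91 positions.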
